A study of Mus musculus with 14 samples.

Results

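A run of 174 neighbouring transcript rows, from uc008vot to uc008vwh in the alphabetical order of their UCSC-style identifiers, was examined for the transcripts in it that separated Rbp7 knockout (KO) from wild-type (WT) mouse carotid arteries. Its members are the 89 of these 174 rows that had at least 1 TPM in at least 3 of 14 libraries, out of 29304 such rows in a table of 63244. TPM is a transcript's share of its library per unit of length, scaled to the same total in each library. The run was chosen by its KO against WT values in these same libraries, so every KO against WT value below is a description of how it was picked, and no test of that contrast is offered as support. The response to the drug was not used to pick it.

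The libraries came from carotid arteries of male C57BL/6J mice, either RBP7 wild-type or RBP7 knock-out, exposed to DMSO, the solvent, or to rosiglitazone at 10 µM for 24 h. WT gave 3 DMSO and 3 rosiglitazone libraries, and KO gave 4 of each. The labels disagree on whether the removed arteries or the mice were treated, and they do not say how the knockout was made, on which background the mutation arose, or whether libraries came from separate animals, so the spread between replicates may be partly technical. The files give no read depth, and fewer cells of a type cannot be told apart from less RNA per cell.

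Rbp7 codes for retinol-binding protein 7, a small cytosolic protein that carries retinoids and is made in fat tissue and in the endothelium of blood vessels. Rosiglitazone activates PPARγ, a nuclear receptor that binds DNA together with the retinoid X receptor and is known in vessels for protective actions in endothelium and smooth muscle. The table names transcripts by identifier only: 0 of 63244 identifiers matched the gene tables used here. No member can therefore be given a gene, a role, a genome position or a sequence, the tissue label was not checked against marker genes, and "neighbour" below means the next row in identifier order, not the next gene on a chromosome.

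In the stretch, 16 of 89 members had KO and WT libraries that did not overlap, against 0.167% of all rows tested. All 8 KO values lay above all 6 WT values in 9 members (background 0.0751%) and below them in 7 (background 0.0921%). Those 16 were 32.7% of the 49 such rows in the whole table, while the members were 0.304% of the rows tested. Elsewhere in the table, a window of 89 consecutive rows that lay at least that far from the stretch held at most 3. Of the differences between genotype means, averaged over treatments on the log2(TPM + 1) scale, 29 of 89 were over 0.5 in size (background 6.18%) and 6 were over 1, of which 3 were higher and 3 lower in KO (background 0.846%). In the fit over all rows, 9 members passed an adjusted p of 0.05 for KO against WT averaged over treatments (limma, background 0.058%), 4 higher (background 0.0171%) and 5 lower (background 0.041%), and all 9 were among the 16. Scaling by median of ratios gave 7 higher and 5 lower calls (0.0307% and 0.0478% of all rows), and quantile normalization gave 8 and 5 (0.0341% and 0.0478%). Since these values chose the stretch, nothing is read from the counts. Without the 4 KO libraries whose sample numbers run from 18 to 21, 5 members passed, 3 higher and 2 lower (0.0431% of all rows under the same setting). There 8 higher and 12 lower members did not overlap, against 0.37% and 0.363% of all rows. Leaving libraries out cannot make separate groups overlap, but it can take a row below the TPM limit, as it did uc008vrz.1.

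**Figure D1:**
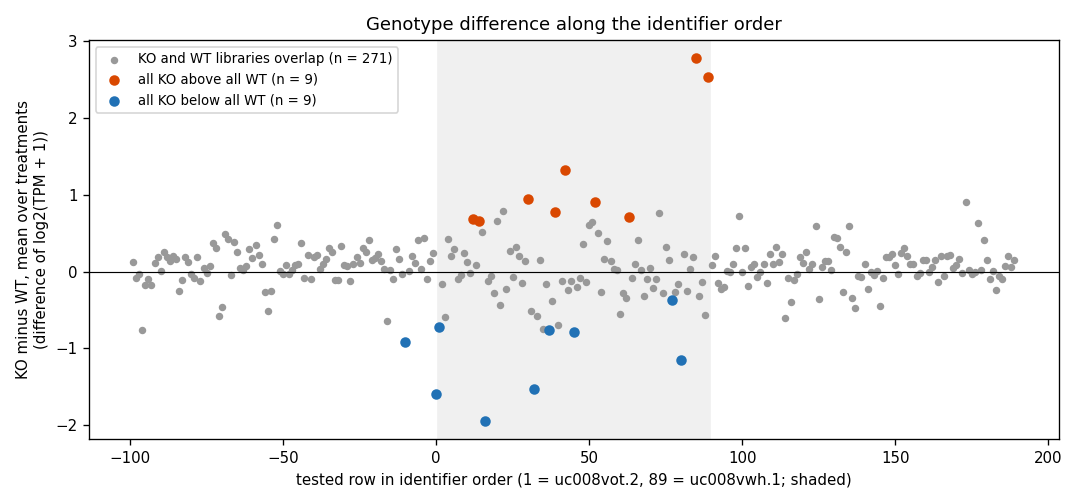
KO minus WT difference, averaged over both treatments on the log2(TPM + 1) scale, for the 89 members (shaded) and 100 tested rows on each side, in identifier order. Rows whose libraries do not overlap between genotypes are coloured: 9 higher and 7 lower inside the stretch, 2 lower just before it and 0 in the 100 rows after it.

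The largest rises in KO sat at the far end of the order. Transcript uc008vwd.1 was close to 0 in WT. Its WT libraries read 4.4e-07, 0 and 0.865 TPM under DMSO and 0, 0 and 0.012 TPM under rosiglitazone, while KO ranged from 2.83 to 11.4 TPM, so it passed the limit of 1 TPM only through KO. The last member, uc008vwh.1, measured 1.09, 0.928 and 1.22 TPM in WT under DMSO and 0.755, 2.33 and 2.19 TPM under rosiglitazone. The KO libraries stood at 11.0, 14.7, 9.77 and 7.55 TPM under DMSO and at 14.3, 18.2, 12.4 and 15.9 TPM under the drug. The lowest KO library was 5.22 TPM above the highest WT library, and the ratio of the means, 12.97 ± 3.47 TPM (SD, n = 8) to 1.42 ± 0.671 TPM (SD, n = 6), was 9.14. On the log2(TPM + 1) scale the differences were 2.78 (SE 0.27) for uc008vwd.1 and 2.53 (SE 0.17) for uc008vwh.1, the highest of the 89 with that pseudocount. Both sizes depend on the pseudocount: they were 5.48 and 3.17 with 0.1 TPM added and 1.20 and 1.47 with 5 TPM. With 0.1 TPM, uc008vrz.1 (3.22) stood above uc008vwh.1. The 3 rows between them, uc008vwe.1, uc008vwf.1 and uc008vwg.2, had negative differences of -0.32, -0.13 and -0.57, and their libraries overlapped.

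Transcript uc008vtf.1, in the middle of the stretch, had the next highest difference on the log2(TPM + 1) scale, 1.32. It read 2.27, 2.34 and 3.21 TPM in WT under DMSO and 3.22, 2.51 and 3.95 TPM under rosiglitazone. Its KO libraries read 10.0, 6.86, 7.57 and 11.5 TPM under DMSO and 8.10, 8.63, 8.34 and 9.07 TPM with the drug. Every KO library was above every WT library, and the means differed 3.00-fold, which is less than the 3.30-fold of the lower-abundance uc008vtt.1. Transcript uc008vrz.1 was a low one that was listed at 0 in 5 of 6 WT libraries, at 0.0734 TPM in the other, and between 0.506 and 1.44 TPM in all 8 KO libraries. It too entered only through KO, so a difference was built into its entry. The same holds for uc008vtt.1, at 0.252 to 0.976 TPM in WT and 1.501 to 2.70 TPM in KO.

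The other members that were higher in KO differed by smaller steps. Transcript uc008vtc.1 averaged 6.62 ± 1.33 TPM in WT (SD, n = 6) and 12.04 ± 2.18 TPM in KO (SD, n = 8). Transcript uc008vup.1 averaged 3.54 ± 0.711 TPM in WT and 6.41 ± 0.939 TPM in KO. For uc008vpl.1 the means were 14.8 ± 1.51 and 24.7 ± 5.24 TPM, with the same n. Their differences on the log2(TPM + 1) scale were 0.78, 0.71 and 0.68. The smallest of the 9 on this scale, uc008vpt.1, had a difference of 0.66, although its means differed 2.05-fold. Its rank depends on the pseudocount: with 0.1 TPM added its difference was 0.98, above 0.86, 0.85 and 0.72 for those 3. Its groups came close to meeting. The lowest KO value, in rosiglitazone replicate 3, exceeded the highest WT value, in DMSO replicate 3, by only 0.00413 TPM. The median difference of the 9 was 0.91.

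The members lower in KO had a different spread of abundance. Transcript uc008vqa.2 fell the furthest on the log2 scale. WT libraries were at 61.1, 31.6 and 35.5 TPM under DMSO and at 84.0, 51.0 and 30.1 TPM under rosiglitazone. KO libraries were at 11.0, 13.8, 9.34 and 13.2 TPM under DMSO and at 8.34, 13.05, 10.7 and 9.99 TPM under rosiglitazone. The WT libraries were scattered and the KO libraries were close together, with means of 48.9 ± 21.1 TPM (SD, n = 6) and 11.2 ± 1.97 TPM (SD, n = 8), a 4.37-fold difference (-1.95 on the log2(TPM + 1) scale, SE 0.21).

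Transcript uc008vsh.3 had a tighter contrast. In WT it lay at 7.52, 8.92 and 9.72 TPM under DMSO and at 7.59, 6.88 and 6.71 TPM under rosiglitazone. In KO it lay at 2.16, 1.81, 1.68 and 2.97 TPM under DMSO and at 2.22, 1.44, 2.11 and 2.37 TPM under rosiglitazone, 3.77-fold lower by the means (-1.53, SE 0.12). This row was identical in all 14 libraries to uc033igm.1, a row 12142 tested rows away, so the 2 identifiers carry 1 measurement. No other member had an identical row.

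The first member, uc008vot.2, was the most abundant of the 89. WT arteries gave 309, 339 and 343 TPM under DMSO and 255, 256 and 287 TPM under rosiglitazone. KO arteries gave 194, 193, 194 and 222 TPM under DMSO and 155, 152, 158 and 179 TPM under rosiglitazone. KO libraries were 1.65-fold lower on average (-0.72, SE 0.06), a modest step with little scatter inside each group. Transcript uc008vvx.2 averaged 10.3 ± 2.49 TPM in WT and 4.11 ± 1.33 TPM in KO (SD, n = 6 and 8; -1.15). Transcripts uc008vtj.2 and uc008vta.2 fell from 3.07 ± 0.581 to 1.34 ± 0.238 TPM and from 2.42 ± 0.199 to 1.03 ± 0.202 TPM (same n; -0.79 and -0.76). The smallest difference was that of uc008vvr.2, with means of 5.47 ± 0.404 TPM in WT and 4.02 ± 0.513 TPM in KO (-0.37). The median of the 7 was -0.79.

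**Figure D2:**
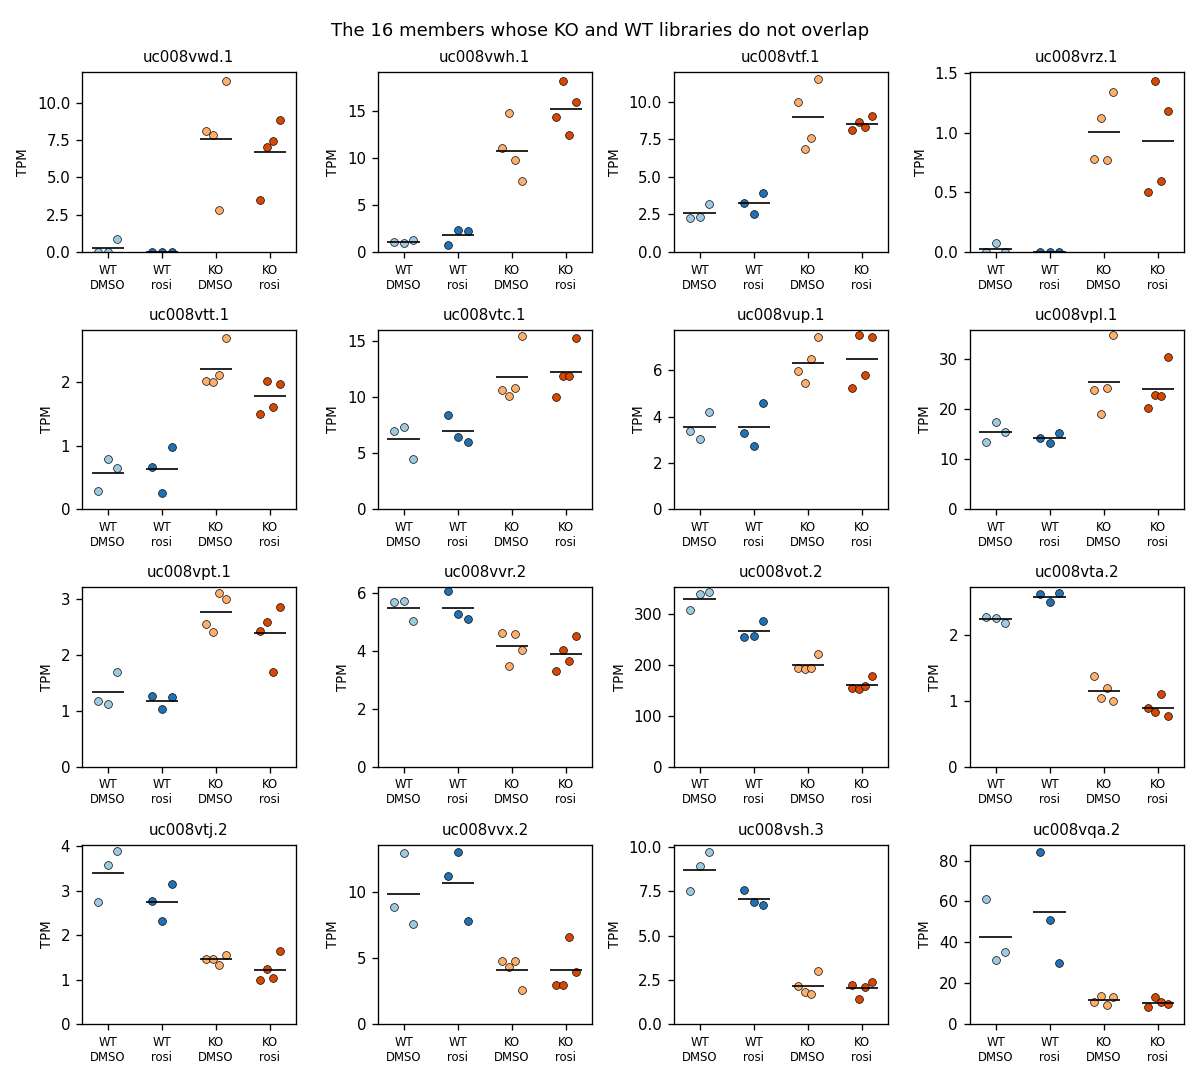
TPM of each of the 16 members without overlap between genotypes, 1 panel per transcript with its own axis from 0, points for the 14 libraries and lines for group means. In each panel the 8 KO points lie on 1 side of the 6 WT points, with the narrowest gap in uc008vpt.1.

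The 16 were spread along the whole order and not packed together. The first member and the last member were both among them, in a stretch that these same values chose. No 2 were adjacent rows, and the longest run of members between 2 of them was 13, from uc008vqa.2 to uc008vrz.1. Higher and lower members were mixed along the order: 9 of the 15 steps from one to the next changed direction. Whether this differs from a random order was not tested. In consecutive windows of 20 members, counted from the first, 4, 4, 3 and 3 did not overlap, and 2 of the last 9. The median size of the difference, whatever its sign, was 0.26, 0.41, 0.25 and 0.27 in the 4 full windows and 0.25 in the last 9 rows, so its size showed no steady slope along the order.

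Most members did not separate the genotypes. The libraries of 73 overlapped, and 59 of these 73 had a difference of at most 0.5 in size. The rest of the 73 were over 0.5, a larger share than the 6.18% of all rows tested. The extremes among the overlapping members were uc008vsu.2 at -0.75 and uc008vrn.2 at 0.79. No KO library of uc008vsu.2 reached 1 TPM (0 to 0.982 TPM, against 0.798 to 1.79 TPM in WT). It entered only through WT, so a difference was built into its entry. Over all 89 the median was -0.05, with 42 differences above and 47 below 0, beside a median of 0.06 over all rows tested. The median size was 0.27 in the stretch and 0.13 over all rows.

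Beyond the far edge the pattern stopped at once, though these same values chose the stretch, so an end at that row is part of the choice. In the 100 tested rows after uc008vwh.1, 0 had libraries without overlap, the median size of the difference was 0.14 and 6 were over 0.5. The next rows, uc008vwi.1, uc008vwl.1 and uc008vwm.2, had differences of 0.09, 0.21 and -0.15 and overlapping ranges, for example 4.58 to 6.47 TPM in WT and 5.27 to 8.33 TPM in KO for uc008vwi.1. The first row after the edge without overlap was uc008yif.1, 847 tested rows on.

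The near edge was less sharp. The row just before the first member, uc008vos.2, gave 35.3, 39.2 and 62.3 TPM in WT under DMSO and 53.8, 18.1 and 48.4 TPM under rosiglitazone. Its KO libraries gave 15.4, 11.6, 11.1 and 14.8 TPM under DMSO and 10.8 to 15.001 TPM under the drug, so all 8 KO libraries lay below all 6 WT libraries (means 3.37-fold apart, -1.59). At 11 rows out, uc008vob.1 was also lower in KO, at 0.346 to 2.22 TPM against 2.47 to 4.13 TPM in WT (-0.91). The 9 rows between uc008vob.1 and uc008vos.2 all overlapped. Their differences ran from -0.10 for uc008vop.1 to 0.44 for uc008voo.1, with 0.41 for uc008vom.2, 0.25 for uc008vor.2 and 0.13 for uc008voq.1, so the highest were larger in size than that of uc008vvr.2 (-0.37), a member without overlap. Farther out the pattern ended: the next row without overlap, uc008vfk.1, was 127 rows before the edge and was higher in KO. The 100 rows before the stretch held 2 rows without overlap in all, with a median size of 0.16 and 7 differences over 0.5. By this measure the change ran from uc008vob.1 to uc008vwh.1, so the rule's lower limit leaves out 2 rows that look like the members, and its upper limit falls on the last such row.

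The limit on TPM left out 85 rows of the stretch, of which 30 were listed at 0 in every library and 55 were above 0 somewhere. Of the 174 rows, 51.1% passed, against 46.3% of the whole table. Just inside the limit lay uc008vtx.2, uc008vou.1 and uc008vtn.1, whose third-highest values were 1.01, 1.05 and 1.10 TPM, and just outside lay uc008vpx.2, uc008vpq.2 and uc008vvq.2 at 0.779, 0.732 and 0.710 TPM. All 6 overlapped between genotypes. Of the rows left out, 1 did not overlap: uc008vux.1 was listed at 0 in all 6 WT libraries and had between 0.139 and 1.22 TPM in the 8 KO libraries. Over the whole table, rows higher in KO without overlap numbered 22 within the limit (0.0751%). They numbered 32 when every row above 0 in any library was kept (0.0661%).

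The genotype differences are given next by treatment; DMSO and rosiglitazone share no libraries. In DMSO 21 members did not overlap (background 4.98%), and in rosiglitazone 21 (background 3.46%). In DMSO 11 members were higher and 10 lower in KO without overlap (background 3.55% and 1.44%, for 4 against 3 libraries). In rosiglitazone 9 were higher and 12 lower (background 2.1% and 1.36%). The count without overlap in both, in the same direction, was 17 (background 0.287%), which holds the 16 by construction. In opposite directions the count was 0 in the members and 14 among all rows tested. Such rows were so rare in the whole table that the 0 says nothing about the members. With limma 5 members passed in DMSO (background 0.0512%), 3 higher (background 0.0239%) and 2 lower (background 0.0273%). In rosiglitazone 6 passed (background 0.041%), 3 higher (background 0.0137%) and 3 lower (background 0.0273%), and 5 passed in both. Those 5 were uc008vot.2, uc008vsh.3, uc008vtf.1, uc008vwd.1 and uc008vwh.1, and uc008vqa.2 passed in rosiglitazone only. In rosiglitazone, uc008vtf.1 (limma adjusted p = 0.0471) lost its call in 21 of 29 other settings, and uc008vqa.2 in 11 of 29. For uc008vwd.1 the call was lost in 11 of 28 in DMSO and 10 of 28 in rosiglitazone. For uc008vwh.1 it was lost in 0 of 28 in each. Leaving out WT DMSO replicate 1 reduced the DMSO count to 3 (0.0446% of all rows), and leaving out its replicate 2 reduced it to 2 (0.031%). In rosiglitazone it was 1 without WT rosiglitazone replicate 1 (0.00688% of all rows) or 2 (0.0137%), and 2 without its replicate 3 (0.0137%). It was 3 without KO rosiglitazone replicate 3 (0.024%) or 4 (0.0277%), or without both KO libraries of replicate number 4 (0.0352%). Calls over all rows fell in these settings too.

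**Figure D3:**
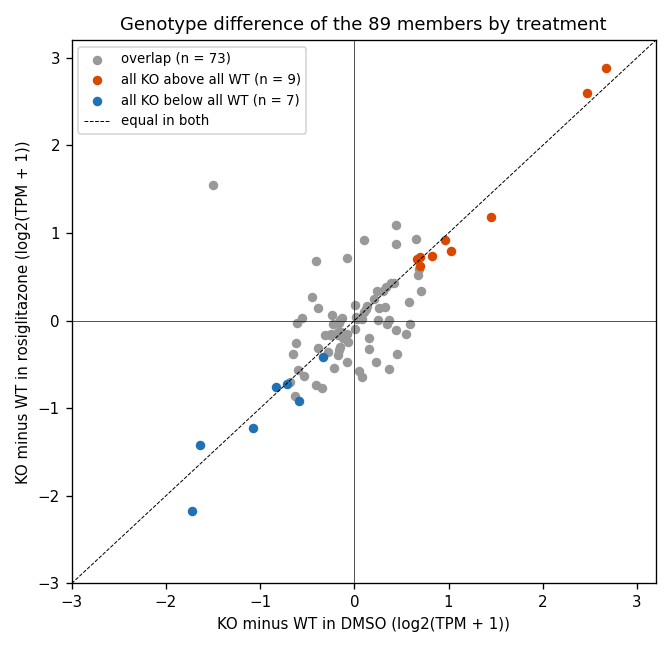
KO minus WT difference of each of the 89 members in DMSO (horizontal) and in rosiglitazone (vertical), both on the log2(TPM + 1) scale, with the dashed line marking equal values. The 16 coloured members have the same sign on both axes, and the grey point at upper left is uc008vuf.1 (-1.504 and 1.54).

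All 16 members without overlap had the same sign in both treatments, as their selection requires, and 68 of the 89 did. For uc008vwh.1 the values were 2.47 in DMSO and 2.60 in rosiglitazone, for uc008vsh.3 -1.63 and -1.42, and for uc008vot.2 -0.72 and -0.72. The 2 treatments differed most, among the 16, in uc008vqa.2, at -1.72 and -2.18. Whether the drug response differed between genotypes is a contrast the choice of members did not use. In that test 0 of 89 members passed (limma, background 0.00683%), and 2 had an unadjusted p under 0.05 (background 2.14%), so the members' share was near that of all rows. The smallest p values belonged to uc008vvf.1 (0.72, SE 0.31, limma adjusted p = 1.00) and uc008vrs.2 (-0.69, SE 0.31, limma adjusted p = 1.00).

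No member passed the test for the drug. Rosiglitazone against DMSO passed the threshold in 0 of 89 members in WT (limma, background 0.00341%), in 0 in KO (background 0.0137%) and in 0 on average (background 0.00341%). At an unadjusted p under 0.05 there were 6, 7 and 9 members, against 3.51%, 4.5% and 6.37% of all rows. The median response of the members was -0.0036 in WT and -0.08 in KO on the log2(TPM + 1) scale, beside -0.05 and -0.09 over all rows. After median-of-ratios scaling the members' medians were 0.06 and 0.0029, so their sign depends on the scaling. Without a test, 4 members were higher (background 2.87%) and 4 lower (background 6.73%) with no overlap of WT libraries (8 in all, background 9.61%). In KO 1 was higher (background 0.519%) and 1 lower (background 1.48%; 2 in all, background 2.0%).

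Transcripts uc008vot.2 and uc008vvv.1, the most abundant pair, were the only members whose DMSO and rosiglitazone libraries did not overlap in either genotype, in the same direction (background 0.389%; 0.099% higher and 0.29% lower). The means of uc008vot.2 in DMSO and rosiglitazone were 330 ± 18.8 and 266 ± 18.0 TPM in WT (SD, n = 3) and 201 ± 14.1 and 161 ± 12.1 TPM in KO (SD, n = 4). The responses, -0.31 (SE 0.10) and -0.32 (SE 0.08), were nearly the same in the genotypes although the levels were not, and their average of -0.31 did not pass (limma adjusted p = 0.230). It did pass when replicate numbers were fitted as a random block (limma adjusted p = 0.0257), a setting that called 0.253% of all rows. Transcript uc008vvv.1 went the other way. WT libraries were at 89.6, 83.9 and 96.9 TPM under DMSO and at 162, 123 and 122 TPM under rosiglitazone. KO libraries were at 87.1, 88.96, 71.5 and 83.2 TPM under DMSO and at 99.6, 177, 92.3 and 115 TPM under rosiglitazone. Its average response was 0.54 (SE 0.13, limma adjusted p = 0.330), and its genotypes overlapped.

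Transcript uc008vuf.1 had another pattern and was chosen after its values were seen. It was either several TPM or close to 0. WT libraries read 6.73, 10.8 and 12.6 TPM under DMSO and 0.0026, 0.0113 and 0.0008 TPM under rosiglitazone. In KO both states occurred under both treatments, with 0.0046, 14.6, 12.1 and 0.0023 TPM under DMSO and 2.95, 16.8, 0.0415 and 5.3e-07 TPM under rosiglitazone. The response was -3.42 in WT (SE 1.16, limma adjusted p = 1.00) and -0.37 in KO (SE 1.01, limma adjusted p = 0.985), and the difference between them did not pass (3.05, SE 1.54, limma adjusted p = 1.00). When only the WT groups were fitted, its response in WT passed (-3.42, SE 0.24, limma adjusted p = 0.0238; 0.0307% of the rows were called there).

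**Figure D4:**
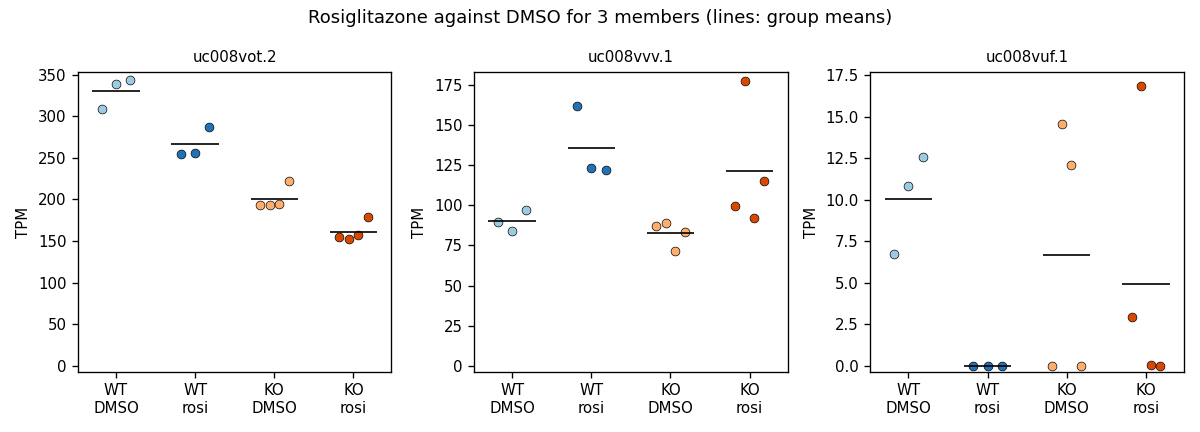
TPM of uc008vot.2, uc008vvv.1 and uc008vuf.1 in the 14 libraries by group, with lines at the group means. The first is lower and the second higher with rosiglitazone in each genotype, and the third lies either near 0 or at several TPM, in both treatments in KO.

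The summed level of the members did not separate the genotypes, and its lower mean in KO came mostly from 1 transcript. Over all 89 the total ranged from 851 to 965 TPM in the WT libraries and from 670 to 922 TPM in the KO libraries, so the ranges overlapped (means 908 ± 42.5 and 778 ± 85.5 TPM; SD, n = 6 and 8; log2 ratio -0.22). Without uc008vot.2, which held 18.3% to 37.2% of the total, the means were 610 ± 50.8 and 597 ± 76.5 TPM (log2 ratio -0.03). The 9 higher members together had 28.5 to 34.1 TPM in WT and 65.9 to 95.1 TPM in KO. The 7 lower members had 337 to 407 TPM in WT and 173 to 247 TPM in KO, and, leaving out uc008vot.2, 55.5 to 114 TPM against 18.7 to 25.8 TPM. The 73 overlapping members had 462 to 564 TPM in WT and 431 to 580 TPM in KO.

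**Figure D5:**
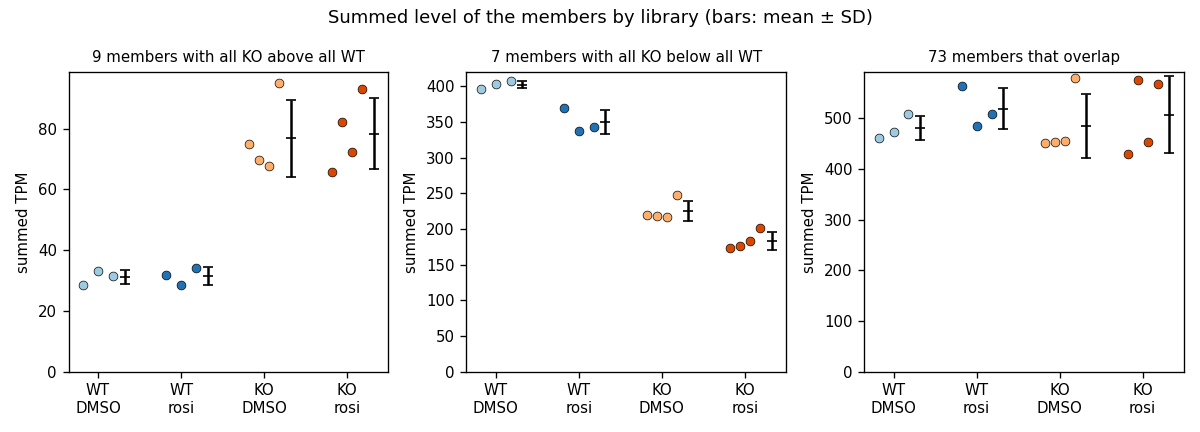
Summed TPM per library of the 9 higher, 7 lower and 73 overlapping members, each axis from 0, with the mean and SD of each group. The higher and lower sets separate KO from WT because their members were picked to, and the overlapping members span 431 to 580 TPM in KO and 462 to 564 TPM in WT.

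The KO libraries were not uniform. Both KO libraries of replicate number 4 stood apart in the whole table. The DMSO library listed 27686 rows at 1 TPM or more and the rosiglitazone library 26716, against 23996 to 26179 in the other 12. Their 2 most abundant transcripts held 33.2% and 37.5% of all TPM, in the same order, against 41.8% to 48.8%. The same libraries had the highest KO values of the summed higher members, 95.1 and 92.9 TPM, and KO DMSO replicate 4 had the highest total of all members in KO, 922 TPM. Without both, 8 higher and 11 lower members did not overlap, against 0.0987% and 0.159% of all rows, and 8 passed the averaged comparison (0.0599% of all rows). Within KO, libraries numbered 18 to 21 were compared with those numbered 2 to 5. In that test 0 of 89 members passed (limma, background 0.324%), and 7 had an unadjusted p under 0.05 (background 12.5%). The smallest p values were those of uc008vpc.2 (0.44, SE 0.12, limma adjusted p = 0.167) and uc008vtk.2 (-0.35, SE 0.13, limma adjusted p = 0.300). The median of this difference was 0.16 in the members and 0.13 over all rows, and after median-of-ratios scaling it was 0.03 and 0.01. Sample numbers 2 to 5 and 18 to 21 are KO and 6 to 11 are WT, so genotype and sample number cannot be told apart.

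Features other than the difference between genotypes are given beside those of all rows tested, which passed the same TPM limit. They are not fully independent of that difference: the zeros of uc008vrz.1 and uc008vwd.1 were all in WT. The members' mean TPM had a median of 3.28, against 3.91 over all rows tested, and ran from 0.336 to 231. At least 1 library was listed at 0 in 13 of them (14.6%, against 13.9%), and 45 (50.6%, against 62.6%) had 1 TPM or more in all 14 libraries. The median SD within groups, on the log2(TPM + 1) scale, was 0.33 over the members and 0.32 over all rows, and 0.22 in the 16 without overlap, where a low spread is part of how they were picked.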

How the data were processed

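RNA from 14 carotid artery libraries was sequenced. The authors deposited 1 table of TPM values per transcript, each library scaled to the same total. FastQC, kallisto, sleuth and 2 names of the mouse build (mm10, GRCm38) are listed in the submitters' processing notes, without roles. Their versions and the annotation: not given in the sources used here. Depth cannot be read from TPM, and no counting intervals could be made. Each of the 14 columns carries a sample number that 1 sample's label holds.

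The fit kept rows that reached 1 TPM in 3 or more libraries. limma 3.58.1 (R 4.3.3) fitted a mean for each of the 4 groups to log2(TPM + 1), and its variance prior followed abundance. The within-KO comparison split each KO group by sample number. Tests were two-sided, and p was adjusted by Benjamini-Hochberg over all 29304 rows, with a threshold of 0.05. Fold changes on this scale understate low rows. Genotypes "did not overlap" where every KO library lay beyond every WT library. Descriptions used Python 3.11.15 and plots matplotlib 3.10.9. The fit was tested on simulated data.

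The members and all lists were chosen with earlier results of these data known. Named members were the 10 largest rises and falls among those without overlap (16 in all), the first and last 3 members with 3 rows outside each edge, the smallest p per direction in the other contrasts, the 5 most abundant, and any listed at 0 in every library of 1 genotype, of which there were 0. Rows named beside these were chosen after their values were seen. Cell type markers could not be looked up.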

Additional observations from a re-analysis of the deposited data

Results flagged for a closer look

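In 50 sets of 4 KO values (22 members and 3 totals, in each treatment), the gap from the highest or lowest library to its neighbour was divided by the whole spread of its set. In 5 sets this ratio exceeded Dixon's 95% limit for 4 values, which chance alone exceeds in about 1 of 20. The sets share libraries and are not independent. All 5 were set apart by KO DMSO replicate 4, which was the highest library in each. The ratio was 0.955 for uc008vot.2 (222 TPM, next 194), 0.878 for uc008vtc.1 (15.5 TPM, next 10.8) and 0.843 for uc008vtt.1 (2.70 TPM, next 2.11). It was 0.965 for the total of all 89 members (922 TPM, next 746) and 0.936 for the total of the 7 lower members (247 TPM, next 219). In this library the 2 most abundant transcripts of the whole table held 33.2% of all TPM, and its part in these values was not tested.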

How the results depend on the processing

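Other pseudocounts, TPM limits, scalings, variance models, weights and blocks were tried, as were fits on fewer groups or libraries. Leaving uc008vot.2 out of the total was added after seeing the data. None of the 16 members without overlap changed sign in KO against WT. For other pseudocounts, TPM limits or fewer libraries, their full separation fixed this in advance. None of the members with the smallest p in the other contrasts changed sign there. Of 22 other named rows, 3 changed sign averaged over treatments in at least 1 setting: uc008vuw.1 (0.05, range -0.10 to 0.15), uc008vuf.1 (0.02, range -0.42 to 0.81) and uc008vwi.1 (0.09, range -0.0079 to 0.11). Averaged over treatments, 9 members passed. This was 5 without the 4 KO libraries numbered 18 to 21 (0.0431% of all rows) and 5 to 13 over all settings (0.0375% to 0.0819%). Of the 9, uc008vtt.1, uc008vtj.2 and uc008vta.2 lost the averaged call in 19, 15 and 12 of 27 settings. Transcript uc008vqa.2 lost it in 1 of 28, and uc008vot.2, uc008vsh.3, uc008vtf.1, uc008vwd.1 and uc008vwh.1 in 0. In DMSO, 5 passed (0.0512% of all rows). It was 3 when 1 TPM was asked of all 14 libraries (45 members tested, 0.0327% of all rows). With only the DMSO groups fitted it was 2, while the share of all rows was 0.0627%. In rosiglitazone, 6 passed (0.041% of all rows), against 3 with the sample-number range as a covariate (0.0307%). It was 3 without the libraries numbered 18 to 21 (0.0503%) and 3 without both KO libraries of replicate number 4 (0.0352%). With only its own groups fitted it was 2 (0.053%). Leaving out 1 library gave 6 to 8, 2 to 6 and 1 to 6 calls in these comparisons. The shares of all rows there were 0.0413% to 0.0588%, 0.031% to 0.0583% and 0.00688% to 0.055%. Rosiglitazone gave 1 call in place of 0 in WT when only the WT groups were fitted (uc008vuf.1, 0.0307% of all rows). It gave 1 in KO with no filter (uc008vqb.2, which is not among the 89, 0.0103% of all rows). With 1 TPM asked of all libraries, 5 members were higher without overlap (0.0872% of all rows). The lower members without overlap numbered 12 without the libraries numbered 18 to 21 (0.363% of all rows, against 0.0921% with all libraries) and 11 without both of replicate number 4 (0.159%). Leaving out 1 library gave 9 higher throughout (0.0865% to 0.254% of all rows) and 7 to 9 lower (0.0961% to 0.124%). These counts could fall only through the TPM limit, since leaving a library out cannot make separate groups overlap. Log2 ratios of the total ran from -0.26 to -0.19 with 1 library left out. That ratio was -0.0288 without uc008vot.2. Where fewer rows or libraries entered, that is part of the setting; other causes were not tested.

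The main fit did not treat replicate numbers as pairs, although the random replicate block had an estimated correlation of 0.34. Over all rows, deviations of same-numbered DMSO and rosiglitazone libraries correlated at 0.07 to 0.22 within a genotype (4 of 7 over 0.1, and 5 of 7 highest with their own number) and at -0.15 to 0.06 across genotypes. A fixed replicate block gave 6, 4 and 3 calls averaged, in DMSO and in rosiglitazone (0.0444%, 0.0375% and 0.0239% of all rows). A random replicate block, set within each genotype, gave 6, 5 and 6 (0.0375%, 0.0478% and 0.0444%). It also gave 1 call in place of 0 for the average drug response (uc008vot.2, 0.253% of all rows).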
